A study of Mus musculus with 331 samples.

Results

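The ventral horn and the dorsal horn of the mouse spinal cord were compared within each mouse labelled B6SJLSOD1-WT, the control strain of a series on SOD1-G93A mice. The rule took every mouse with this label at all ages, summed the counts of all spots annotated as ventral horn and of all spots annotated as dorsal horn, and kept the mouse as a block, so that each mouse gave 1 ventral and 1 dorsal profile. It found 24 of the 67 mice of the series, with 108 of 345 count tables, and in them 4195 ventral horn spots and 2005 dorsal horn spots of 23397 spots in all. The assay was Spatial Transcriptomics: polyA RNA of a tissue section is captured on an array of barcoded spots, and a spot is a small area of tissue that can hold several cells or parts of cells.

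The grey matter of the spinal cord is divided by function. Its dorsal horn receives sensory input on touch, pain, itch and temperature through layers of small excitatory and inhibitory interneurons, many of which make neuropeptides. Its ventral horn holds the large cholinergic motor neurons that drive skeletal muscle, with the premotor interneurons around them, and motor neurons are the cells lost in amyotrophic lateral sclerosis (ALS).

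By age there were 6 mice of postnatal day 30 (p30), 4 of p70, 8 of p100 and 6 of p120, 13 of them labelled female and 11 labelled male. They were measured on the array versions L6 (11 mice) and L7 or L8 (13 mice). Some p70 arrays carried sections of both genotypes, and from these only the table that the labels assign to B6SJLSOD1-WT was used. The label does not say whether these mice carry a transgene for normal human SOD1, and no manipulation other than genotype is named. The second set of mice used here carried the label B6SJLSOD1-G93A at p30 (10 mice, no sample shared with the WT mice), the strain with the ALS-linked SOD1 mutation. Both horns of a mouse come from the same animal. Every array used held at least 3 spots of each horn except in p70 replicate 1 (6 of 9 arrays did) and p100 replicate 4 (4 of 5).

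A WT mouse gave 11 to 563 ventral horn spots (median 105) and 11 to 270 dorsal horn spots (median 52.5), with 44746 to 2182391 counts in the ventral sum and 35976 to 1145026 in the dorsal sum. The median count per spot was 2999 in the ventral and 2927 in the dorsal horn over all spots, and within mice it was higher in the dorsal horn in 15 of 24. In 2 of the 24 mice the X- and Y-linked genes Xist and Ddx3y went against the labelled sex. The annotations were checked with Mbp, a main protein of myelin, whose share of the counts should be higher in white than in grey matter. Of 107 WT arrays with spots of both kinds, 6 had a white-to-grey ratio of this share below 1.25 (0.855 to 1.229), and the ratio of the others was 1.395 to 4.592. These 6 arrays were 3 of the 4 arrays of p30 replicate 2, the single array of p120 replicate 3 and both arrays of p120 replicate 4. In p120 replicates 3 and 4, 143 of the 278 genes that differed at least 2-fold over all mice (51.4%) lay in the direction of the whole group, against 86.7% in p30 replicate 2 and 85.3% to 100% in the others. The cause was not tested. Beside the main comparison of all 24 mice, values without these 6 arrays (22 mice) are given for some of the results. From those values the 1 WT array without such a ratio was left out too. A value not given can differ without these arrays as well. Leaving these arrays out, and the limit of 1.25, were decided after the data had been seen.

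**Figure D1:**
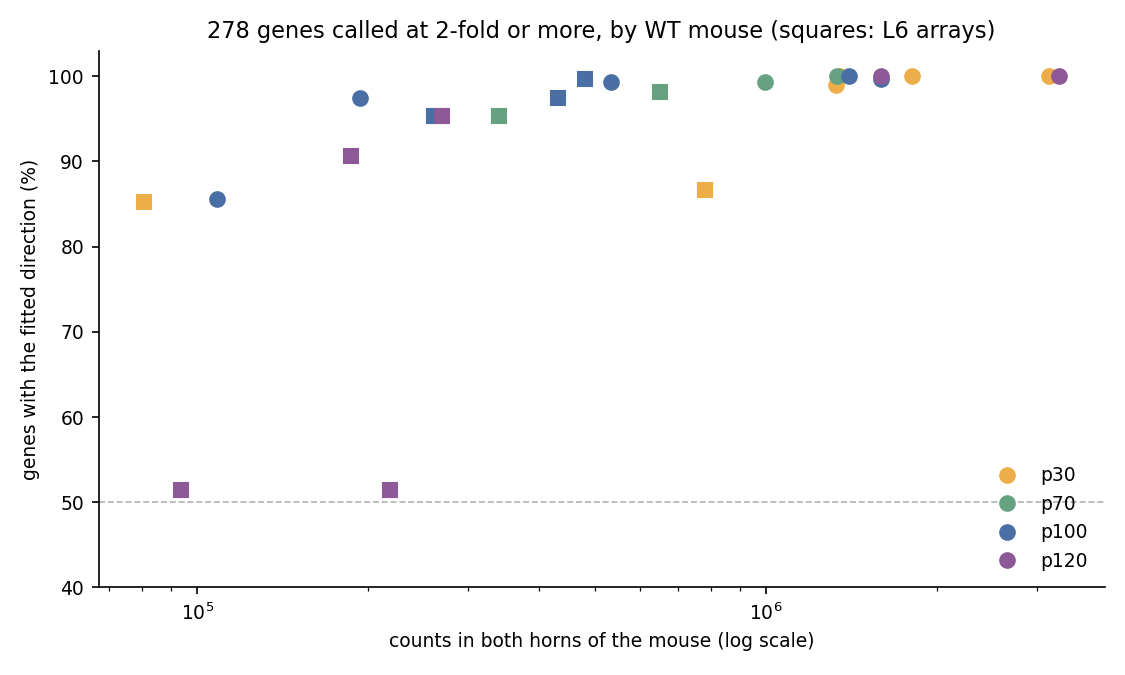
Check of the horn annotations in each WT mouse: the vertical axis is the percent of the 278 genes called at 2-fold or more that lay in the fitted direction in that mouse, the horizontal axis is the number of counts in both of its horns on a log scale, and each point is 1 mouse, coloured by age and square for L6 arrays. The mice p120 replicates 3 and 4 sit at 51.4%, and the other 22 lie between 85.3% and 100%. These genes were chosen on the same mice, so the percentages describe the mice and test nothing.

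Of 5728 genes that passed the count filter, 3357 (58.6%) differed between the horns by edgeR's quasi-likelihood test with Benjamini-Hochberg adjusted p below 0.05, the rule behind every call below. Higher in the ventral horn were 1686 genes (29.4%), and 1671 (29.2%) were higher in the dorsal horn. Differences of at least 2-fold were fewer and mostly dorsal, with 79 ventral-high genes (1.38%) and 199 dorsal-high genes (3.47%). Without the 6 arrays the test called 3489 of 5706 genes (61.1%), 1760 ventral-high (30.8%) and 1729 dorsal-high (30.3%), of which 96 (1.68%) and 228 (4%) at 2-fold or more. In those 22 mice the horns did not overlap for 71 genes (1.24%). Of 3321 genes called over all mice and tested in both, 3277 were called the same way in the 22 mice and 0 had the opposite sign. Within array versions the test called 722 of 3336 genes in the 11 mice on L6 arrays (1104 of 3786 in the 9 of them left without the 6 arrays) and 4332 of 7864 in the 13 mice on L7 or L8 arrays. A summed profile cannot tell more cells of a type from more RNA per cell, which holds for every difference below. The count filter worked by horn, so a rare gene could pass through its counts in 1 horn alone. For the rare members of a list, the calls among those that passed are therefore partly set by the filter. Levels are CPM, counts relative to the summed counts of the genes tested, scaled by edgeR's TMM factors, and compared between horns for the same gene. The means of annotated regions further below are plain CPM without these factors, relative to the counts of all symbols kept. All differences are log2 of ventral over dorsal with the standard error (SE) of the fit.

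The largest ventral differences were in genes of motor neurons. All 12 members of the motor neuron list that passed the filter were higher in the ventral horn (29.4% of all genes tested were), with a median log2 difference of 2.66 against 0.004 over all genes tested, and the summed level of the whole list of 18 was higher in the ventral horn in 24 of 24 mice. Slc5a7, the choline transporter that supplies acetylcholine synthesis (ENSMUSG00000023945, chr17:54273590-54299034, minus strand, GRCm38), had 194, 500 and 951 CPM as the lowest, median and highest of the ventral horns and 0, 36.6 and 115 CPM of the dorsal horns. The lowest ventral horn lay above the highest dorsal horn. Such a gap between all mice of a horn and all of the other was found for 2 genes (0.0349% of those tested), Slc5a7 and Serpinb1b. Slc5a7 was 11.6-fold higher in the ventral horn (log2 3.54 ± 0.18 SE, n = 24 mice, edgeR adjusted p = 5.38e-15), with 3.16 on L6 arrays (3.82 without the 6 arrays) and 3.68 on L7 or L8 arrays.

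Slc18a3, the vesicular acetylcholine transporter (ENSMUSG00000100241, chr14:32462438-32464850, minus strand), ran from 36.6 over a median of 144 to 267 CPM in the ventral and from 0 over 9.66 to 127 CPM in the dorsal horn. It was higher in the ventral horn in 23 of 24 mice, with a log2 difference of 3.03 ± 0.22, and the highest dorsal value fell to 47.6 CPM without the 6 arrays. Slc10a4, a transporter of cholinergic synaptic vesicles, differed by 3.15 ± 0.23 and Chodl, a marker of fast motor neurons, by 3.01 ± 0.18. Spp1, the secreted phosphoprotein osteopontin found in large motor neurons, had 139 to 713 CPM (median 386) in the ventral and 21 to 306 CPM (median 66.6) in the dorsal horn. Its horns overlapped over all mice and no longer did so without the 6 arrays (289 to 714 against 21 to 165 CPM). The peptide precursors of the calcitonin gene-related peptide family were ventral too, Calcb with a log2 difference of 2.91 ± 0.19 and Calca with 1.84 ± 0.20. Ret, the receptor subunit for the GDNF family of trophic factors, differed by 1.49 ± 0.09, and its partner Gfra1 by 0.41 ± 0.12. Ache, which breaks acetylcholine down, differed by 0.48 ± 0.09.

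Chat, which makes acetylcholine and defines these neurons, was too low for the filter, with 255 counts in all ventral and 6 in all dorsal horns. The motor neuron transcription factors Mnx1 (144 and 1 counts), Isl1 (100 and 9) and Isl2 (126 and 12) and the protease gene Mmp9 (337 and 45) had as little. A fit without the filter called 32% of 16932 genes, 2934 of them ventral-high. In it all 18 members of the list were ventral-high, Chat with an edgeR adjusted p of 4.43e-25 and Mnx1 with 4.94e-17. The start-site windows of the 2 cholinergic transporters are printed with those of 2 dorsal peptide genes, Tac2, which had the largest called difference, and Sst, chosen after the windows had been searched because its window holds the element below. The windows of Tac1 and Npy were searched too and held no match. They are 300-base windows from RefSeq (GRCm38.p6), each 5′ to 3′ on the strand of the gene, with a match to the cAMP response element TGACGTCA in capitals where there was one.
Slc5a7, chr17:54298985-54299284, minus strand: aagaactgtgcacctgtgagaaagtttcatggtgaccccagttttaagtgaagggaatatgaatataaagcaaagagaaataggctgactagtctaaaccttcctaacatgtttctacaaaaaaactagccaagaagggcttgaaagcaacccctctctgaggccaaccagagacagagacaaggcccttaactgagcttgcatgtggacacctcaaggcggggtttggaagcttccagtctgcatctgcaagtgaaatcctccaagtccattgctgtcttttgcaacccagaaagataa
Slc18a3, chr14:32464801-32465100, minus strand: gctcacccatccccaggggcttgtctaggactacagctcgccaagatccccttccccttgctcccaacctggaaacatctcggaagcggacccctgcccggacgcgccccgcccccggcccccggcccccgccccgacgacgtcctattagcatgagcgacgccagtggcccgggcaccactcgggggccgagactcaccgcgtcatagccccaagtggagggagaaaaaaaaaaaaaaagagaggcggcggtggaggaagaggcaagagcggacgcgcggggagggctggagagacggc
Tac2, chr10:127724228-127724527, plus strand: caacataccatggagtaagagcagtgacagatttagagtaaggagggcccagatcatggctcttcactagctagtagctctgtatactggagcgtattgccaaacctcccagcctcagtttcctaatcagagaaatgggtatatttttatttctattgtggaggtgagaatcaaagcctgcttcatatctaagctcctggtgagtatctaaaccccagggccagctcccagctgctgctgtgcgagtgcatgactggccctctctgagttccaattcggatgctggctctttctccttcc
Sst, chr16:23890795-23891094, minus strand: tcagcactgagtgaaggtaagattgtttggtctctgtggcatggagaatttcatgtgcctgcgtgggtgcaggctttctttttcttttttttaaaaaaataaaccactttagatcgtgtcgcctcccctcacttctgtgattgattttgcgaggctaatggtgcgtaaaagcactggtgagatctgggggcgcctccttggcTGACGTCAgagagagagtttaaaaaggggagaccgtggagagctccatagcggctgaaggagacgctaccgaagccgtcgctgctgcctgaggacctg

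Among these 4 windows, the one of Sst held the element. On both strands it was found in 507 of 27025 windows of all genes (1.88%) and in 159 of 4469 windows of tested genes (3.56%). Of the dorsal-high genes at 2-fold or more, 6 of 147 with a window held it (4.08%), namely Chgb, Dusp8, Hlf, Meg3, Scg2 and Sst, and of the ventral-high ones 1 of 60 (1.67%), Mcam. The motifs of 2 factor families were searched in the same way. The palindromic motif of early B-cell factors (EBF) was in 0.914% of all windows, in 3 of the 147 and in 1 of the 60, and the motif of oestrogen-related receptors, TCAAGGTCA, in 0.407% of all windows and in 0 of either set. A match is a string of letters and was not linked to binding.

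**Figure D2:**
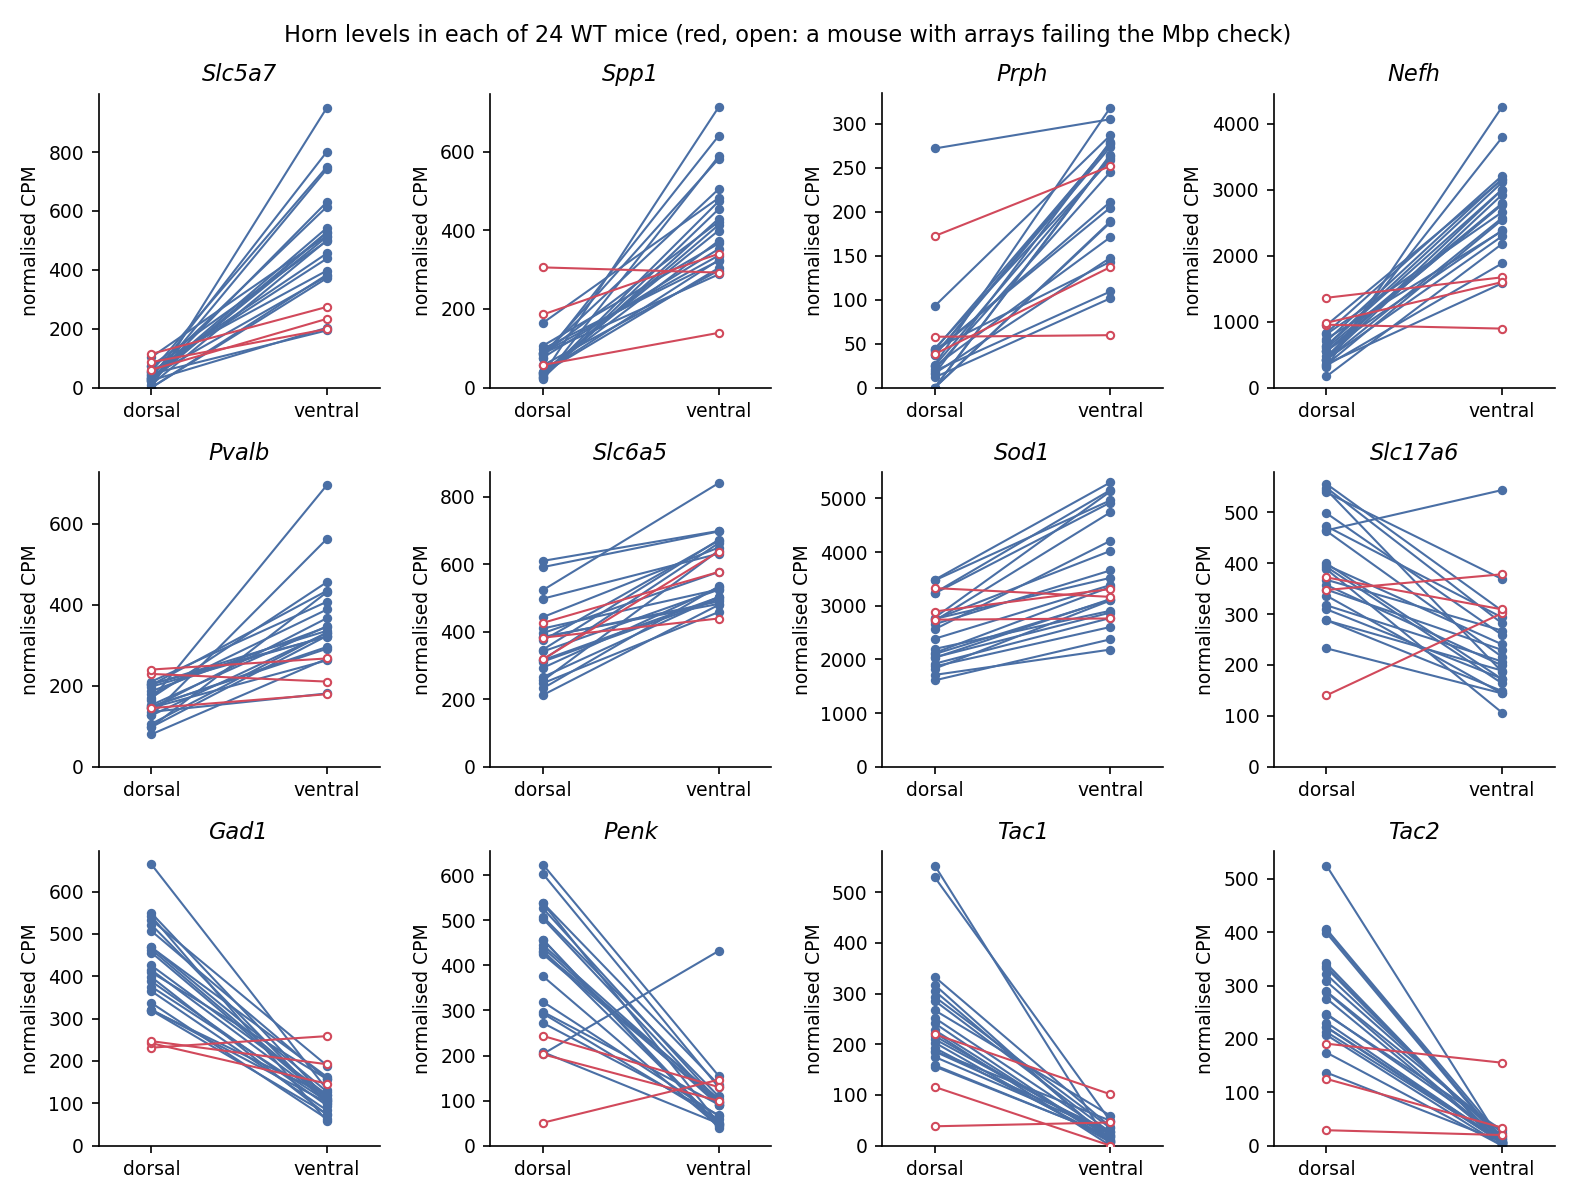
Levels in each WT mouse: each panel is 1 gene, the vertical axis is normalised CPM, and a line joins the dorsal and the ventral horn of 1 mouse, with red open points for mice with arrays that failed the Mbp check. Slc5a7 lies at 194 to 951 CPM in the ventral and 0 to 115 CPM in the dorsal horns, and Tac2 at 28.9 to 525 CPM in the dorsal and 0 to 155 CPM in the ventral horns.

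Genes of the neuronal skeleton and axon followed the ventral horn. Of 20 listed and tested, 16 were higher ventrally and 2 dorsally, with a median of 0.52, beside 29.4%, 29.2% and 0.004 over all genes tested. The neurofilament subunits, which set the width of large axons, were all ventral-high: Nefh had 896 to 4257 CPM (median 2718) in the ventral and 171 to 1363 CPM (median 561) in the dorsal horn. The horns of Nefh overlapped over all 24 mice but not without the 6 arrays (1590 to 4276 against 171 to 952 CPM). Its log2 difference was 2.19 ± 0.16 (adjusted p = 1.58e-11, edgeR), beside 2.01 ± 0.16 for Nefm and 1.81 ± 0.13 for Nefl. Prph, the intermediate filament peripherin of motor and sensory axons, differed by 2.63 ± 0.21, and Sncg, a synuclein of such neurons, by 2.32 ± 0.21. The microtubule genes Tubb3 (1.16 ± 0.10), Map1b (1.05 ± 0.09) and Stmn2 (0.90 ± 0.05) were ventral-high too. Gap43, a growth cone protein, was an exception, at 243 to 659 CPM in the dorsal and 106 to 279 CPM in the ventral horn, with a log2 difference of -1.42 ± 0.10. Kif5a, an axonal motor, was the other dorsal one at -0.16 ± 0.05 and was not called without the count filter (adjusted p = 0.499).

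Of the 12 genes named for the largest ventral differences, 4 lay outside these lists: Ahnak2, a large scaffold protein, with 2.47 ± 0.18, Kcng4, a modifier subunit of potassium channels, with 2.36 ± 0.17, the calcium-binding protein gene Tesc with 2.29 ± 0.18, and Fgf11, an intracellular fibroblast growth factor homologue, with 2.21 ± 0.17. Of 19 tested genes for the channels and pumps of fast-spiking and large neurons, 12 were ventral-high and 5 dorsal-high. Over all genes tested 29.4% were ventral-high and 29.2% dorsal-high, the latter near the share in this list. Kcna1, a potassium channel of axons, had 58.6 to 1027 CPM (median 589) in the ventral and 23.5 to 459 CPM (median 296) in the dorsal horn and was higher ventrally in 24 of 24 mice although the ranges of the horns overlapped, with a log2 difference of 1.07 ± 0.06. Pvalb, the calcium buffer parvalbumin, differed by 1.12 ± 0.08 and the sodium channel subunit Scn4b by 0.97 ± 0.12. Kcnc2, a potassium channel gene, went the other way (-1.24, adjusted p = 4.34e-20). Of 12 tested matrix genes 8 were ventral-high and 2 dorsal-high, beside 29.4% and 29.2% of all genes tested. The ventral-high ones were led by the lectin Lgals1 with 1.95 ± 0.17 and Hapln4, a link protein of perineuronal nets, with 0.79. In some smaller sets of mice this balance was not seen: 1 matrix gene was ventral-high and 2 dorsal-high of 9 on L6 arrays, with and without the 6 arrays, 2 and 2 of 12 at p70, 3 and 3 of 11 at p100, and 2 and 2 of 9 at p120 (3 and 2 of 12 without the 6 arrays). Of all genes tested in these sets, the calls in both directions were 722 of 3336 on L6 arrays (1104 of 3786 without the 6 arrays), 1557 of 6944 at p70, 1619 of 4214 at p100 and 715 of 2918 at p120 (1702 of 6465). Spock1, a secreted proteoglycan, was lower ventrally in every mouse (-0.51 ± 0.06).

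The precursors on the neuropeptide list, which leaves out the ventral-high Calca and Calcb of the motor neuron list, were higher in the dorsal horn. All 9 members of this list that passed the filter were dorsal-high, each by at least 2-fold (3.47% of all genes tested were), with a median log2 difference of -3.03. Without the filter, 18 of the list's 20 members were dorsal-high and 0 ventral-high, beside 2479 and 2934 of all 16932 genes in that fit. Tac2, the precursor of neurokinin B (ENSMUSG00000025400, chr10:127724478-127731768, plus strand), had 28.9, 262 and 525 CPM as the lowest, median and highest of the dorsal horns and 0, 6.67 and 155 CPM of the ventral horns. It was dorsal-high in all 24 mice, and its ranges separated without the 6 arrays (137 to 526 against 0 to 29.3 CPM). Its log2 difference of -4.42 ± 0.24 was the largest called in either direction, a 21.4-fold lower level in the ventral horn (adjusted p = 2.76e-14, edgeR), with -3.65 on L6 arrays (-5.54 without the 6 arrays) and -4.62 on L7 or L8 arrays.

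Tac1, the precursor of substance P (chr6:7554879-7565834, plus strand), had 38.2 to 552 CPM (median 221) in the dorsal and 0 to 101 CPM (median 20) in the ventral horn, a difference of -3.26 ± 0.19. Npy, the precursor of neuropeptide Y of inhibitory interneurons (chr6:49822710-49829507, plus strand), lay at 24.7 to 214 CPM in the dorsal and 0 to 39.8 CPM in the ventral horn, was dorsal-high in all 24 mice, and differed by -3.71 ± 0.16. Sst, the somatostatin precursor of excitatory interneurons (chr16:23889573-23890958, minus strand), had a median of 492 CPM in the dorsal and 56.1 CPM in the ventral horn (-3.03 ± 0.21). Penk, which encodes the enkephalins, differed by -2.28 ± 0.16, with 51 to 623 CPM in the dorsal and 39.4 to 432 CPM in the ventral horn. The other called precursors were Nmu (-3.29 ± 0.23), Nppc (-2.80 ± 0.21), Cck (-1.95 ± 0.10) and Nts (-1.60 ± 0.18). Rarer precursors were concentrated in the dorsal sums although these held fewer spots: Pdyn, for the dynorphins, had 376 counts there and 44 in the ventral sums, Grp, linked to itch, 369 and 77, and Adcyap1 409 and 78. Cartpt was not called in the fit without the filter (log2 -0.02, adjusted p = 0.945).

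**Figure D3:**
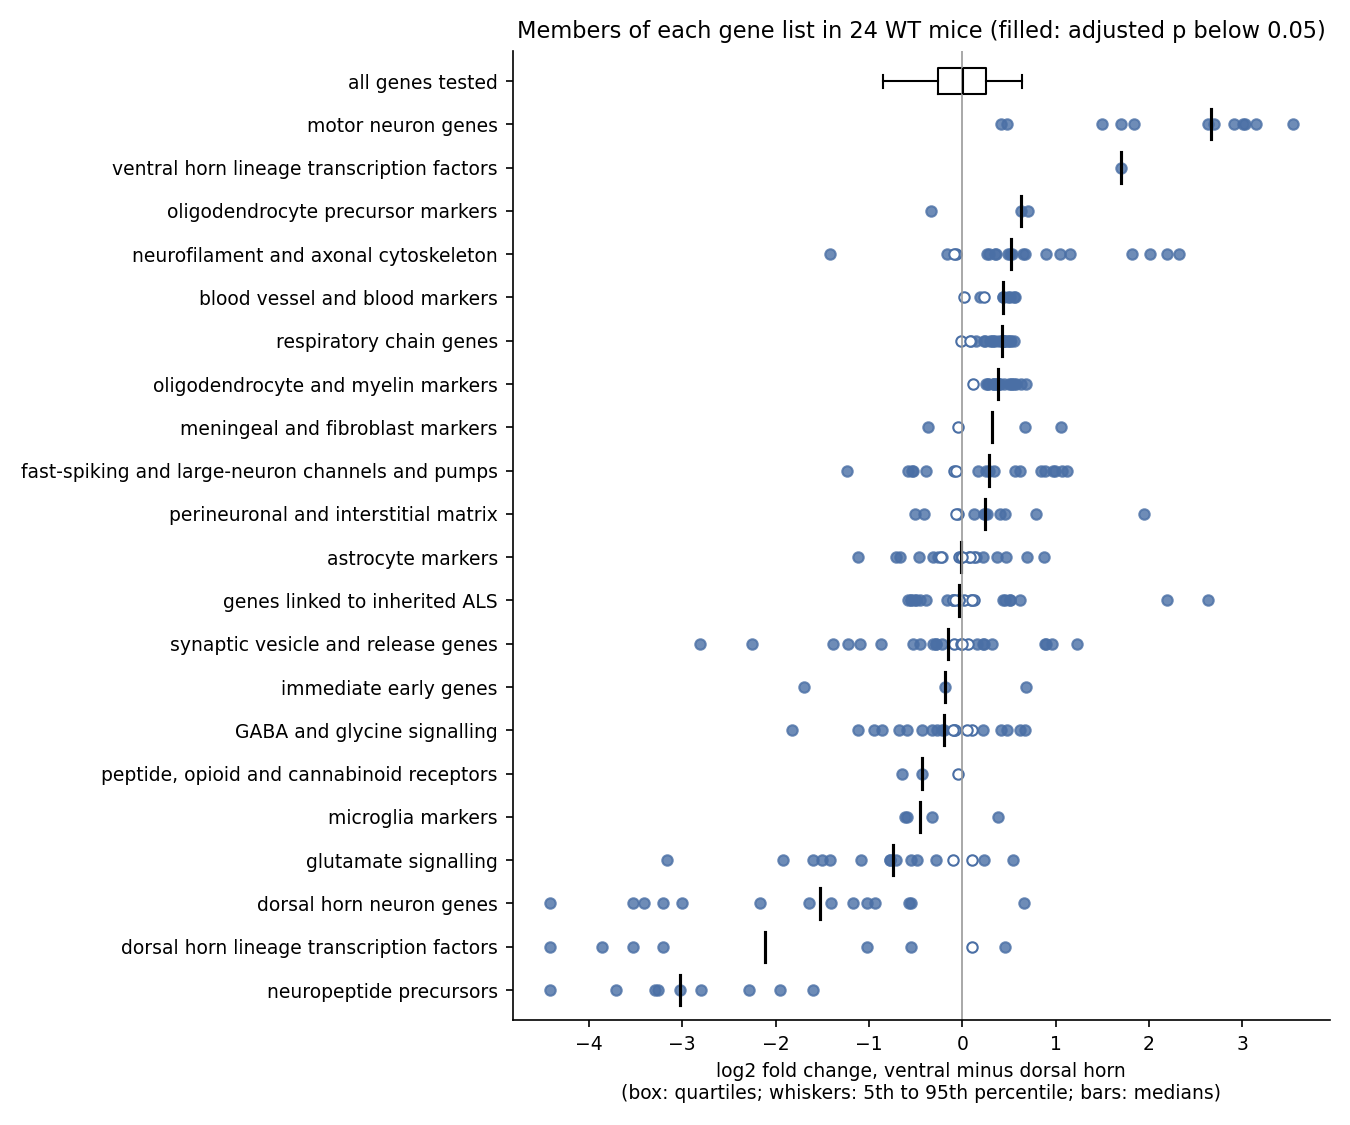
Log2 ventral minus dorsal difference of the tested members of each gene list: each point is 1 gene, the horizontal axis is the log2 difference over 24 WT mice, filled points are called, the bar on each row is the median of the list, and the box on the top row gives the quartiles of all genes tested. The motor neuron list lies wholly on the ventral side (median 2.66) and the neuropeptide list wholly on the dorsal side (median -3.03), with 0.004 for all genes tested.

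Of 25 listed receptors for peptides, opioids and cannabinoids, 3 passed the filter, and 2 of these were dorsal-high (29.2% of all genes tested were). They were Cnr1, the cannabinoid receptor of axon terminals (-0.65 ± 0.10), and Oprl1, the nociceptin receptor (-0.43 ± 0.10). Ntsr2, a neurotensin receptor, was not called (-0.05, adjusted p = 0.558). Without the filter 12 of the 25 were dorsal-high and 1 ventral-high, in a fit that called 32% of all 16932 genes (2479 dorsal-high and 2934 ventral-high). Nmur2, a receptor for the product of Nmu, had 122 counts in the dorsal and 7 in the ventral horns, and Npr3, a receptor that clears natriuretic peptides, had 67 and 388.

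Of the 14 other genes of dorsal horn neurons that passed the filter, 13 were dorsal-high and 1 was ventral-high, with a median of -1.53, beside 29.2% and 29.4% of all genes tested. Without the filter 22 of 25 were dorsal-high and 1 ventral-high, beside 2479 and 2934 of all 16932 genes in that fit. Necab1, a calcium-binding protein of excitatory interneurons, differed by -3.41 ± 0.21, Calb1, calbindin, by -3.00 ± 0.17, and Necab2 by -2.17 ± 0.15. Calb2, calretinin, was the exception, at a median of 300 CPM in the ventral and 199 CPM in the dorsal horn (0.66 ± 0.11). Serpinb1b, a serine protease inhibitor (ENSMUSG00000051029, chr13:33078575-33094380, plus strand), was among the 12 genes named for the largest dorsal differences without being on a list: its dorsal horns had 179 to 912 CPM (median 521) and its ventral horns 0 to 139 CPM (median 32.7). The lowest dorsal mouse lay above the highest ventral mouse, and the difference was -3.41 ± 0.21. The family members of Serpinb1 are close copies of each other, and the sources used here do not give how reads shared between them were counted. Also among the 12 were Camkv, a kinase-like vesicle protein (-3.66 ± 0.21), Hpcal4, a calcium sensor (-3.59 ± 0.20), Baiap3, of dense-core vesicle release (-3.60 ± 0.27), and Syt5, a synaptotagmin (-3.52 ± 0.22).

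Transcription factors that specify dorsal interneurons in the embryo were mostly dorsal-high in these postnatal mice. Of the 8 tested, 6 were dorsal-high and 1 ventral-high (29.2% and 29.4% of all genes tested), with a median of -2.12. This list shares members with that of dorsal horn neurons above, among them Ebf1, Ebf2 and Zic1, so the counts are not independent. Ebf3, an early B-cell factor, had 12.7 to 379 CPM (median 250) in the dorsal and 0 to 54.9 CPM (median 16.8) in the ventral horn, a difference of -3.86 ± 0.19. It was dorsal-high in 23 of 24 mice, and without the 6 arrays its dorsal values (124 to 379 CPM) all lay above the ventral ones (0 to 32.4 CPM). Its relatives Ebf2 and Ebf1 differed by -4.41 ± 0.22 and -3.53 ± 0.18 and the zinc finger gene Zic1 by -3.21 ± 0.23. The selector genes of dorsal interneurons fell below the filter and had more counts in the dorsal sums: Lbx1 had 324 there and 51 in the ventral ones, Tlx3 254 and 28, and Lmx1b 230 and 27. Meis2, a homeobox gene, was the ventral-high one (0.46 ± 0.10). Among the factors of ventral lineages only Esrrg, a nuclear receptor of gamma motor neurons, passed the filter, and it was ventral-high in 23 of 24 mice (1.70 ± 0.12). Without the filter 14 of 26 were ventral-high and 0 dorsal-high, in a fit with 2934 ventral-high and 2479 dorsal-high of 16932 genes. Among them were En1 (165 ventral and 10 dorsal counts), Lhx4 (212 and 12) and Foxp2 (293 and 31), which mark classes of premotor interneurons. This list shares members with the motor neuron list, among them Esrrg, Isl1, Isl2 and Mnx1.

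Of 21 tested genes of GABA and glycine signalling, 5 were ventral-high and 11 dorsal-high, beside 29.4% and 29.2% of all genes tested. Gad1, which makes GABA, had 232 to 665 CPM (median 412) in the dorsal and 58.2 to 259 CPM (median 111) in the ventral horn, a difference of -1.83 ± 0.11, and Gad2, the other GABA-making enzyme, differed by -1.12 ± 0.09. Slc6a5, the neuronal glycine transporter, was ventral-high in 24 of 24 mice, with 439 to 840 CPM (median 555) against 212 to 610 CPM (median 361) and a difference of 0.67 ± 0.05 (adjusted p = 1.13e-19, edgeR). The other 4 ventral-high genes were the glycine receptor subunits Glra1 (0.62 ± 0.10) and Glrb (0.48), the glial glycine transporter Slc6a9 (0.42 ± 0.07), and Slc32a1, the vesicular transporter that both transmitters share (0.22 ± 0.06).

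Of 16 tested genes of glutamate signalling, 12 were dorsal-high and 2 ventral-high, beside 29.2% and 29.4% of all genes tested. Slc17a6, the vesicular glutamate transporter of spinal excitatory neurons, had a median of 380 CPM in the dorsal and 223 CPM in the ventral horn (-0.78 ± 0.10), with wide overlap. The postsynaptic kinase gene Camk2a differed by -3.17 ± 0.18, the metabotropic receptor gene Grm5 by -1.92 ± 0.09, and the AMPA receptor subunit gene Gria2, which keeps calcium out of the channel, by -1.60 ± 0.10. The AMPA receptor subunit gene Gria1 was dorsal-high too (-1.42 ± 0.10), and the other subunits, Gria3 (0.55 ± 0.07) and Gria4 (0.24 ± 0.09), were the 2 ventral-high genes. Gria4 was not called without p70 replicate 3 (0.20, edgeR adjusted p = 0.0502). It was also not called within any single age or on L6 arrays (0.05), sets with fewer mice, and was 0.29 on L7 or L8 arrays.

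Of 24 tested genes of synaptic vesicles and release, 12 were dorsal-high and 8 ventral-high. Over all genes tested 29.2% were dorsal-high and 29.4% ventral-high, the latter near the share in this list. On the dorsal side were the calcium sensor Syt1 (-2.25 ± 0.13) and the vesicle fusion protein Vamp2 (-1.38 ± 0.08), whose dorsal values of 332 to 666 CPM exceeded the ventral ones (102 to 358 CPM) in every mouse. On the ventral side were Syt2 (0.89 ± 0.08) and Vamp1 (0.90 ± 0.08), with Cplx1 (0.96 ± 0.08) and Sv2b (1.23). Of the immediate early genes, 3 passed the filter: Egr1 was dorsal-high (-1.69 ± 0.13), Jund was dorsal-high by -0.18 (adjusted p = 0.0268, and 0.0507 without p120 replicate 6, edgeR), and Jun was ventral-high (0.68 ± 0.12).

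Of 24 tested genes linked to inherited ALS, 7 were ventral-high and 8 dorsal-high, with a median of -0.04. These counts are near the shares over all genes tested, 29.4% ventral-high and 29.2% dorsal-high. Sod1, the mouse counterpart of the SOD1 named in the strain labels, encodes a superoxide dismutase. It had 2182 to 5298 CPM (median 3329) in the ventral and 1609 to 3484 CPM (median 2608) in the dorsal horn. It was higher ventrally in 23 of 24 mice, and in all 22 without the 6 arrays, with a difference of 0.51 ± 0.04 (1.43-fold, adjusted p = 1.45e-21, edgeR). How reads from a human SOD1 transgene, if present, would enter this symbol was not tested. The RNA-binding protein genes Matr3 (-0.58), Hnrnpa1 (-0.55 ± 0.09) and Tardbp (-0.49 ± 0.08) were dorsal-high. Nefh and Prph, described above, are also members of this list. Nuclear genes of the respiratory chain were ventral-high in 21 of 23 tested and dorsal-high in 0, with a median of 0.42, and Cox7c, a subunit of cytochrome c oxidase, differed by 0.49 ± 0.05. The 9 mitochondrially encoded genes of that list were not analysed here.

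Markers of several other cell types differed between the horns. Of 20 oligodendrocyte and myelin markers, 19 were ventral-high and 0 dorsal-high, with a median of 0.39, beside 29.4% and 29.2% of all genes tested. At p120 4 of 19 were ventral-high (12 of 20 without the 6 arrays) and on L6 arrays 11 of 19 (16 of 19), with 0 dorsal-high. Of all genes tested in these sets, 331 of 2918 were ventral-high at p120 (814 of 6465) and 351 of 3336 on L6 arrays (554 of 3786). The summed level of the 20 markers was 19786 to 68370 CPM (median 32828) in the ventral and 14208 to 76854 CPM (median 24196) in the dorsal horn. It was higher ventrally in 22 of 24 mice, and Mbp itself differed by 0.39 ± 0.06. Of 11 listed oligodendrocyte precursor markers 3 passed the filter: Olig1 (0.70 ± 0.07) and Olig2 (0.63 ± 0.10) were ventral-high and Cspg5 (-0.33 ± 0.09) dorsal-high. The balance was not the same in all settings. On L7 or L8 arrays it was 2 ventral-high and 3 dorsal-high of 5 (2164 and 2168 of all 7864 genes). Without the filter it was 2 and 4 of 10 (2934 and 2479 of all 16932 genes). Astrocyte markers went both ways, 6 ventral-high and 7 dorsal-high of 20, near the shares over all genes tested (29.4% and 29.2%), and their summed level was 12320 to 17118 CPM ventrally and 11217 to 16369 CPM dorsally. The glutamate transporter Slc1a3 was dorsal-high in all 24 mice (-1.11 ± 0.08), and Slc7a10, a serine transporter, was ventral-high (0.87). Of 4 tested microglia markers, 3 were dorsal-high, such as Ctss (-0.61), and Ctsd was ventral-high (0.39 ± 0.07); the list summed to 456 to 1170 CPM ventrally and 545 to 2013 CPM dorsally. Of 9 tested vessel markers, 7 were ventral-high and 0 dorsal-high, such as Rgs5 of pericytes (0.51 ± 0.08), with sums of 1034 to 1752 CPM against 785 to 1700 CPM. In some of the smaller sets of mice, where fewer of all genes were called as given above, 1 microglia marker was ventral-high and 0 dorsal-high of 9 at p70, of 3 at p100 and of 3 on L6 arrays without the 6 arrays. Of the vessel markers 2 were ventral-high and 1 dorsal-high of 12 at p70, and 0 of 4 were called on L6 arrays, with and without the 6 arrays, and at p120 (3 ventral-high of 10 without the 6 arrays). Of 4 meningeal markers, 2 were ventral-high, Igfbp2 and Ptgds, and Col1a2 was dorsal-high (-0.37). No ependymal marker passed the filter, with sums of 23 to 128 CPM ventrally and 16.9 to 260 CPM dorsally. No sensory ganglion marker did either: they summed to 0 to 325 CPM ventrally (median 9.01) and 0 to 267 CPM dorsally (median 30.6). The part of these cells in the horn differences was not tested.

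Other annotated regions of the same mice place the horn genes. Means over mice were taken from arrays that passed the Mbp check, with 22 mice for the horns and the medial grey matter, 21 for the dorsal edge, 16 for the lateral edge and 15 for the central canal. Slc5a7 averaged 454 CPM in the ventral horn and next most in the medial edge (138 CPM, 3 mice) and the ventral lateral white matter (117 CPM), while the dorsal horn had the lowest mean, 32.2 CPM. Tac2 averaged 268 CPM in the dorsal horn and 60.2 CPM in the dorsal edge, with 7.42 CPM in the ventral horn as the lowest of all. Tac1 at the dorsal edge (235 CPM) was close to its dorsal horn mean (248 CPM). Of the ventral-high genes at 2-fold or more that passed the filter and are described here, Prph, Sncg, Calca, Lgals1 and Igfbp2 had their highest mean at the dorsal edge. Prph averaged 219.8 CPM there and 205 CPM in the ventral horn, Calca 386 and 228 CPM, Lgals1 168 and 153 CPM, and Igfbp2 116 and 94.4 CPM. Sncg had 440.4 CPM at the dorsal edge, 333 CPM at the ventral edge and 266 CPM in the ventral horn. Some of the rarer motor neuron and premotor genes below the filter were higher at an edge of the cord than in the ventral horn too. Isl2 averaged 26.6 CPM at the dorsal edge and 9.39 CPM in the ventral horn. Isl1 and Foxp2 had their highest mean at the ventral edge, and Mmp9 at the lateral edge. The summed list of sensory ganglion markers averaged 554 CPM at the dorsal edge, 322 CPM at the lateral edge and 302 CPM at the ventral edge. In the dorsal horn this list averaged 62 CPM and in the ventral horn 36.9 CPM. Whether sensory ganglion neurons add to the edge levels of the genes above was not tested. Slc6a5 was highest in the medial grey matter (647 CPM), above the ventral horn (522 CPM) and the dorsal horn (329.5 CPM). Gad1 was highest in the dorsal horn (409 CPM), followed by the central canal (318 CPM). Sod1 ranged from 1877 CPM at the medial edge to 3274 CPM in the ventral horn. These means are plain CPM, not on the TMM scale of the horn levels above, and are a description without a test.

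**Figure D4:**
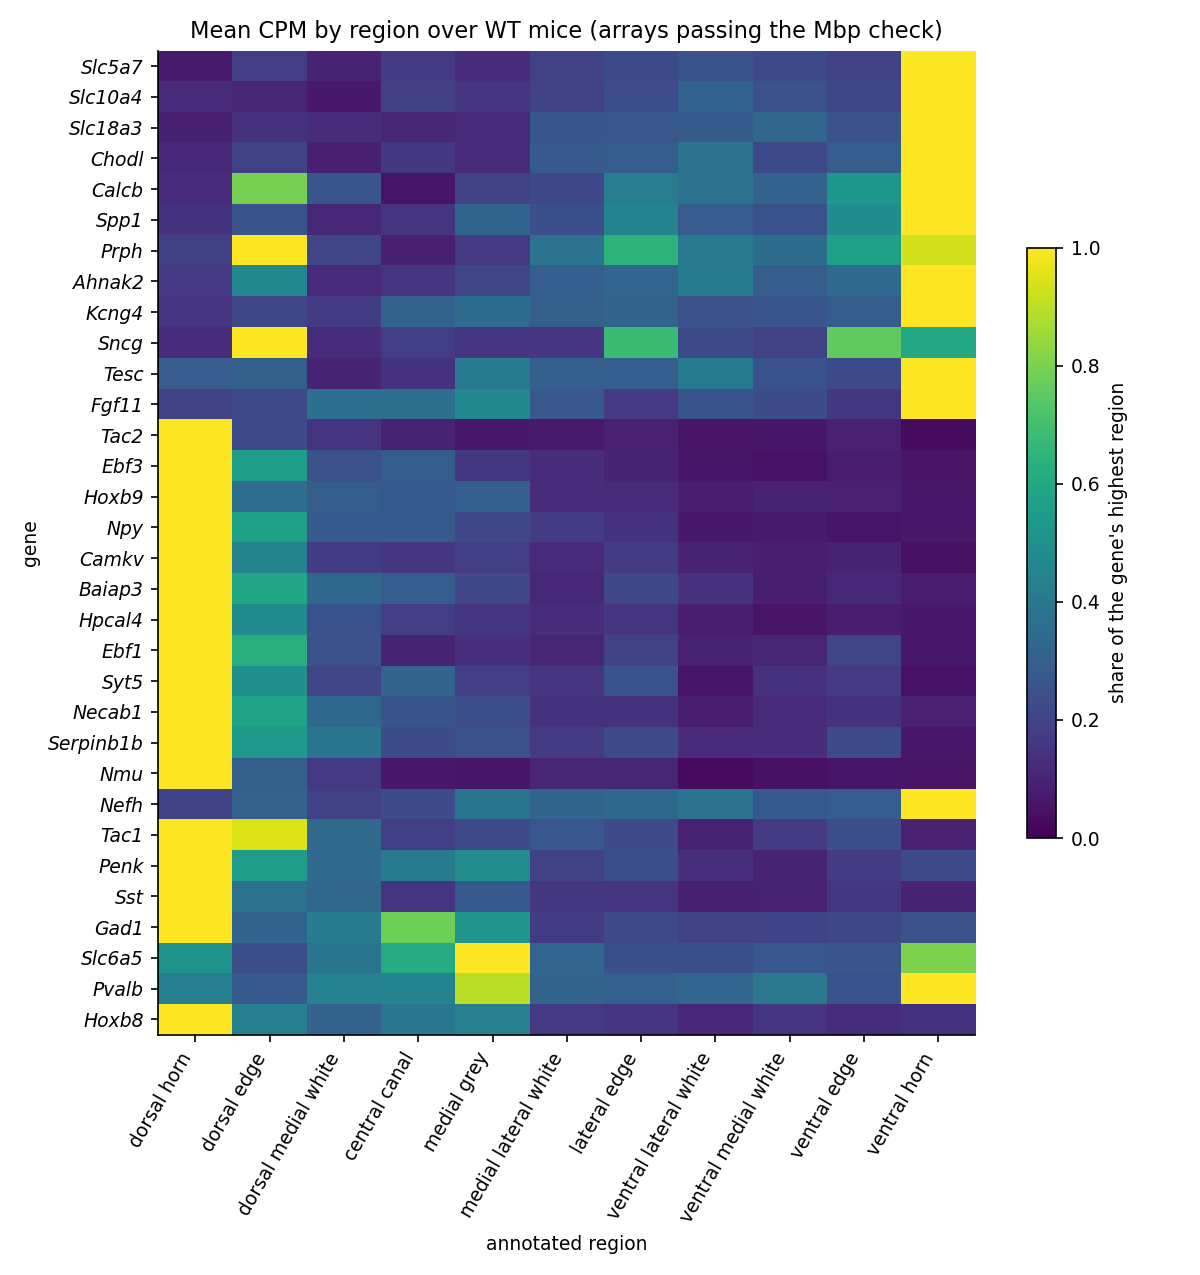
Mean plain CPM (without TMM factors) of described genes in the annotated regions of WT mice, from arrays that passed the Mbp check: rows are genes, columns are regions, and the shade gives each region's mean as a share of the highest mean of that gene. Slc5a7 peaks in the ventral horn (454 CPM), Tac2 in the dorsal horn (268 CPM), Slc6a5 in the medial grey matter (647 CPM) and Sncg at the dorsal edge (440.4 CPM).

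Whether the horn difference depended on age was tested by the horn-by-age terms of the same model. Of 5728 genes 0 (0%) were called by edgeR's quasi-likelihood test, and 142 (2.48%) had an unadjusted p under 0.05. By DESeq2 0 genes were called too, 126 having such an unadjusted p. Fitted within each age, from the youngest to the oldest mice, Slc5a7 differed by 3.84, 3.79, 3.71 and 2.85, Tac2 by -4.65, -4.66, -5.30 and -3.57, Gad1 by -1.85, -1.93, -2.04 and -1.53, and Sod1 by 0.42, 0.58, 0.59 and 0.42. The p120 group holds 2 of the mice whose arrays failed the Mbp check. The p30 group holds 1 such mouse. Without those arrays the p30 and p120 values were 4.25 and 3.09 for Slc5a7, -5.27 and -3.98 for Tac2, -2.14 and -1.55 for Gad1, and 0.50 and 0.61 for Sod1. On these arrays the age test still called 0 genes, with 189 at an unadjusted p below 0.05. By sex label 0 genes (0%) were called as well, with 128 at an unadjusted p below 0.05 by edgeR and 128 by DESeq2, and 192 by edgeR without the 6 arrays. A missed threshold does not show that the horns differ alike at all ages or in both sexes.

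The same comparison was made in the 10 G93A mice at p30, where edgeR called 2683 of 6919 genes (38.8%). Of 3342 genes called in WT and tested there, 3256 (97.4%) had the same direction, 2213 (66.2%) were also called, and 0 were called the opposite way. All 267 genes called in WT at 2-fold or more and tested there had the same direction. Slc5a7 differed by 3.20 ± 0.28 (edgeR adjusted p = 9.23e-06), Tac2 by -4.40 ± 0.26, Ebf3 by -3.65 ± 0.35, Gad1 by -1.70 ± 0.20 and Sod1 by 0.50 ± 0.07. How reads from a human SOD1 transgene would enter the symbol Sod1 in the G93A mice was not tested either. Some genes of smaller difference were not called by edgeR in these mice: Slc17a6 had -0.53 ± 0.23 (adjusted p = 0.0946), Slc32a1 0.08 (adjusted p = 0.524) and Calb2 -0.17 (adjusted p = 0.203). Further ones were the microglia marker Ctss (-0.10, edgeR adjusted p = 0.741), Hnrnpa1 (-0.15, 0.396), Gfra1 (0.31, 0.143) and Meis2 (0.17, 0.461). Whether these differ between the genotypes was not tested. In the G93A p30 mice 6 of 47 arrays failed the Mbp check. Without them 3048 of 7519 genes (40.5%) were called there, and without them and the 6 WT arrays 3401 of 3476 genes (97.8%) had the same direction, 2384 (68.6%) were also called and 0 were called the opposite way.

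**Figure D5:**
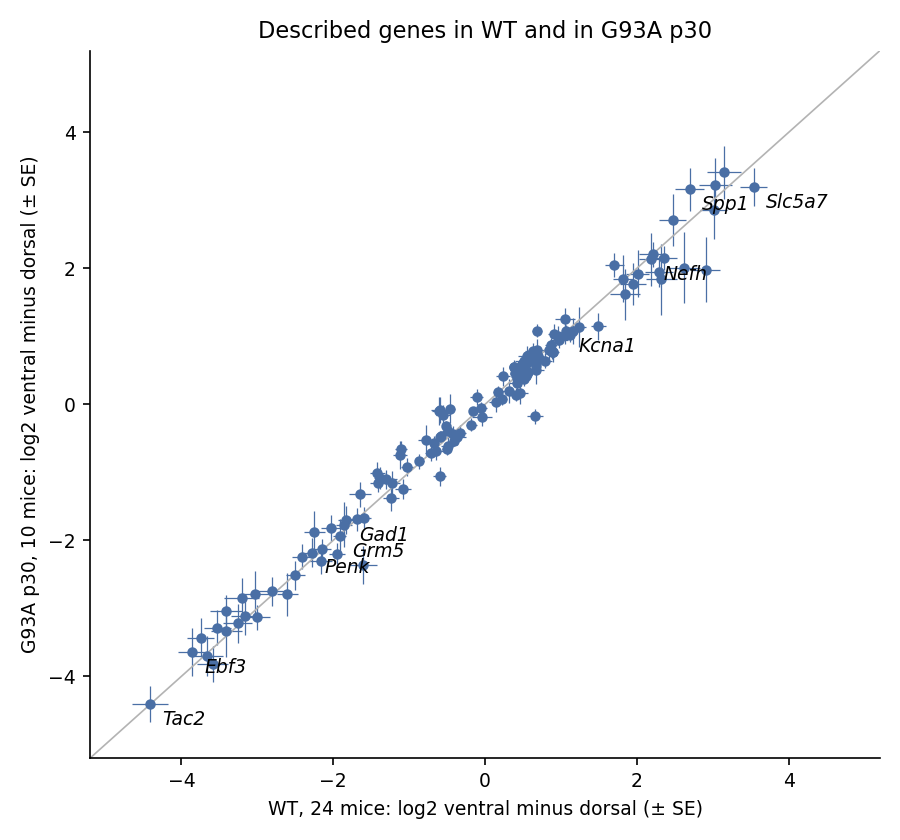
Log2 ventral minus dorsal difference of the described genes in 24 WT mice (horizontal axis) and in 10 G93A mice at p30 (vertical axis): each point is 1 gene and the line marks equal values. Slc5a7 lies at 3.54 and 3.20, Tac2 at -4.42 and -4.40, and Calb2 at 0.66 and -0.17.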

How the data were processed

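The files hold counts per gene and spot, which the authors deposited as 1 table per array, or 1 per genotype for p70 arrays that carry both, with a table that assigns spots to annotated regions. Per the labels, ST Pipeline v0.8.5 produced the p70 tables of mixed arrays, and GRCm38 is the build in the submitters' processing notes; the sources used here do not give how counts were filtered or whether strand was used. Arrays were read with their annotations, and counts were summed per mouse and horn. The tables use 3 sets of gene symbols, and the 17261 symbols listed in all 3 were kept, leaving out 5662 of 22923. Ambiguous features held 0.587% of the WT counts and 517 WT spots had no annotation; both were left out.

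Horns were compared with edgeR 4.0.16 in R 4.3.3 (robust quasi-likelihood test, TMM scaling, filterByExpr by horn, Benjamini-Hochberg adjustment), with mouse and horn as terms, and the scripts were tested on simulated data. The same mouse number stands for both horns because both come from that animal, so the block is the animal. Alternatives were DESeq2 1.42.0, its size factors, limma 3.58.1 (voom), other filters, subsets of mice or arrays, and each mouse left out; the settings built on the Mbp check and the stricter symbol list were added after the data had been seen. With mouse as block, p-values rest on how the difference between the horns of a mouse varies from mouse to mouse.

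Named genes were, in each direction, the 12 called genes of largest difference with at least 20 CPM in the higher horn and the same sign in at least 22 of 24 mice, up to 4 members of each of 23 lists by smallest p, and 12 genes fixed by name. Further genes, among them the rare peptides and transcription factors, Calb2, Meis2, Gap43, the Hox genes and the promoter windows, were chosen after their values had been seen. Values of some chosen genes are not reported here. The members and lists were chosen with earlier results of these data known. Gene positions are from GENCODE (GRCm38), where 5639 of 5728 tested symbols matched.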

Additional observations from a re-analysis of the deposited data

Results flagged for a closer look

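The within-mouse log2 difference between the horns, with 10 CPM added to each level, was checked for mice far from the others of their age, for 12 genes fixed by name and 4 ages, 48 groups in all. In 5 of them 1 mouse stood apart, where chance flags about 1 in 20 groups. Slc5a7 differed by 6.59 in p120 replicate 2, where the dorsal sum held 0 counts of it, against 1.11 to 2.98 in the other 5 mice. Nefh differed by 0.70 in p30 replicate 2 against 2.28 to 3.16 in the others, and Sod1 by 0.01 in the same mouse against 0.35 to 0.53. Penk differed by 1.36 in p120 replicate 4, which had 146 CPM in the ventral and 51 CPM in the dorsal horn, against -2.12 to -0.96 in the others. In p30 replicate 2 and p120 replicate 4, 3 of 4 and 2 of 2 arrays had a white-to-grey ratio of the Mbp share below 1.25. Gad1 differed by -3.02 in p100 replicate 3, with 58.2 CPM ventrally and 542 CPM dorsally, against -2.24 to -1.57 in the other 7 mice. The cause of these values was not tested.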

How the results depend on the processing

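The number of genes that differed between the horns (3357) stayed within 1.5 times under 14 of the other settings and changed more under 7. It was 5413 of 16932 without the count filter, 722 with L6 arrays only, 1557 with p70, 1619 with p100 and 715 with p120 mice only, and, without the 6 arrays that failed the Mbp check, 1104 with L6 arrays and 1702 with p120 mice only. These subsets hold fewer mice. Without the replicate block, that is without pairing the horns of a mouse, 2771 genes were called in WT and 1907 in G93A p30. Leaving out each mouse in turn gave 3117 to 3369 calls in WT and 2120 to 3058 in G93A p30, and 0 for age and for sex label, the count for these 2 under every setting tried. The settings moved the median of all genes by at most 0.06 in either direction, except that it rose by 0.104 without the count filter. Over the named genes, leaving out 1 mouse changed the call in 11 and the sign in 2 of 3276 values, and the other settings changed the call in 135 and the sign in 16 of 2758. Signs changed for genes of small difference. Dcn (-0.04, not called) had 0.0541 without the filter, 0.012 with horns thinned to equal counts, 0.0202 by limma, 0.21 on L6 arrays, 0.41 at p70, 0.0027 at p120, -0.1012 to 0.06 with each mouse left out, and, without the 6 arrays, 0.36 on L6 arrays and 0.0406 at p120. Ntsr2 (-0.05, not called) had 0.0519 without the filter, 0.0051 on L7 or L8 arrays and, without the 6 arrays, 0.0061 on L6 arrays and 0.16 at p120. Jund had 0.0061, Col1a2 0.0769 and Meis2 -0.0088 at p70, and Slc32a1 -0.0216 at p120. The cause was not tested. Genes under the filter, such as Chat, are limited by their counts.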

Other observations

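Hox genes, which give embryonic cells their position along the body axis, were not on a list and were looked at after their values had been seen. Of 34 listed in the tables, 16 passed the filter, 11 were dorsal-high (8 of them at 2-fold or more) and 3 ventral-high, with a median log2 difference of -1.01 against 0.004 over all genes tested. Of all genes tested 29.2% were dorsal-high (3.47% at 2-fold or more) and 29.4% ventral-high. Hoxb9, one of the 12 genes named for the largest dorsal differences, had 50.7 to 423 CPM (median 310) in the dorsal and 0 to 82.3 CPM (median 20.7) in the ventral horn. It was dorsal-high in 23 of 24 mice, without overlap once the 6 arrays were left out, and differed by -3.75 ± 0.18 (SE, 24 mice). Hoxb8 differed by -2.60 ± 0.14, Hoxb7 by -2.50 ± 0.13 and Hoxb3 by -2.42 ± 0.13. The 3 ventral-high genes were Hoxc10 (0.41 ± 0.07), Hoxd10 (0.51 ± 0.11) and Hoxd9 (0.32 ± 0.13). Hoxd9 was not called by edgeR without p100 replicate 7 (0.29, adjusted p = 0.0537), p30 replicate 5 (0.28, 0.0558) or p30 replicate 6 (0.28, 0.0632). In the G93A p30 mice, which share no sample with these, Hoxb9 differed by -3.44 ± 0.29, Hoxb8 by -2.80 and Hoxd10 by 0.63, while Hoxc10 (0.14, adjusted p = 0.265) and Hoxd9 (0.20, adjusted p = 0.399) were not called by edgeR. Neighbouring and overlapping transcripts of a Hox cluster may share reads, and the sources used here do not give how they were counted. Over all 345 tables of the series, the Mbp share of white over grey matter spots was below 1.25 in 39 of the 343 with spots of both kinds, in 15 mice of several genotypes and ages.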
